A study of Mus musculus with 20 samples.

Results

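The genes described here are 10 regulators of endocardial cushion formation and of the transition from endothelium to mesenchyme: the ligands Tgfb2, Bmp2 and Bmp4, the co-receptor Tgfbr3, and the transcription factors Snai1, Snai2, Twist1, Msx1, Msx2 and Sox9. They were picked by symbol from a list of names, and all 10 were found among the 26440 genes of the expression table; all 10 also passed the filter on low values. The table holds 20 mouse heart libraries of strain C57BL/6N. There were 4 wild-type and 4 MyHC-Creld1 KO whole hearts at E13.5 (mid-gestation), and atria and ventricles of 3 wild-type and 3 MyHC-Creld1 KO pups at P3 (postnatal day 3). Creld1 encodes a membrane protein linked to atrioventricular septal defects. The study calls the knockout myocardium-specific, so cells outside the myocardium, cushion mesenchyme and endocardium among them, are not its stated target, and each library also carries their RNA. Each pup gave both an atrial and a ventricular library. Knockout and wild-type animals of 1 replicate number came from 1 litter.

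During valve and septum formation, myocardium next to the cushions secretes BMP and TGF-beta ligands, and endocardial cells that receive them lose their junctions and migrate into the cushion matrix as mesenchyme. Snail, Slug (the product of Snai2) and Twist1 are transcription factors that repress or replace the epithelial programme in such transitions; Msx factors lie downstream of BMP signals, and Sox9 acts in the expanding mesenchyme. At E13.5 the cushions are being remodelled into valves and septa, and after birth the valve leaflets are in place and still maturing.

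The values are the deposited normalized signal, on a linear scale and not divided by gene length. The estimated depth was 5138353 to 20669358 counts per library, and a value at or under 3 counts of a library is called here at the floor. Marker genes matched the labelled tissues: the summed signal of 5 atrial genes was 48401 to 72016 in P3 atria and 2447 to 4050 in P3 ventricles. All 6 endothelial and endocardial markers were present in each group. The third atrial pair stood apart, with a total signal of 5.78e+06 to 6.60e+06 against 8.50e+06 to 1.41e+07 in the other 18 libraries. The atria of wild-type pup 2 had the highest ventricular marker sum of the atrial libraries, 17974, and a cartilage and airway-wall marker sum of 260. Col2a1, a member of the latter list, had a mean of only 0.98 in wild-type atria. Creld1 itself differed by -1.66 ± 0.76 (log2, SE) between knockout and wild-type E13.5 hearts, by -0.89 ± 0.88 in atria and by -0.97 ± 0.88 in ventricles, with a limma adjusted p of 1 in each. Creld1 was 70.9 in the library labelled knockout E13.5 replicate 1 and 66.0 in its wild-type littermate, and 26.6 against 21.6 in the second atrial pair. In both pairs the library labelled knockout was thus the higher. The wild-type value of that atrial pair rests on 9.76 estimated counts. Directions of genotype below are those of the labelled groups.

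Promoters (250 bases before to 50 bases after the gene's start, RefSeq, GRCm38.p6) were on hand for 6 of the 10 genes. The sequences of Twist1, lower at P3 in both chambers, of Tgfb2, lower at P3 in ventricles, and of Bmp4, which was lower in ventricles than in atria of every pup, are given 5′ to 3′ on the gene's strand. Capitals mark matches, on either strand, to a TATA box (TATAAA), a SMAD box (CAGACA), the box CCAAT and the E-box bound by Snail and Slug (CACCTG). Twist1 is at chr12:33957421-33957720 (+), Tgfb2 at chr1:186705940-186706239 (-) and Bmp4 at chr14:46390620-46390919 (-).
Twist1: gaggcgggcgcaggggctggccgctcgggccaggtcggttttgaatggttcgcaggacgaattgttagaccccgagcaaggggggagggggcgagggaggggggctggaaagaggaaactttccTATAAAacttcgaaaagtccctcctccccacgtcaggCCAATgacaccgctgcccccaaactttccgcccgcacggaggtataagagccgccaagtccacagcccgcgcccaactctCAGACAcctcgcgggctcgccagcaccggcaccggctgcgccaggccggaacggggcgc
Tgfb2: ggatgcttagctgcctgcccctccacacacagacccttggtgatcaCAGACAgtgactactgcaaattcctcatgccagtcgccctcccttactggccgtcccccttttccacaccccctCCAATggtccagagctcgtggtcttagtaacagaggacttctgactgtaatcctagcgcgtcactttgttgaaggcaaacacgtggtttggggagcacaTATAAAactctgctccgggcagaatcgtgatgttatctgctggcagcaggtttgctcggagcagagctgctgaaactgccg
Bmp4: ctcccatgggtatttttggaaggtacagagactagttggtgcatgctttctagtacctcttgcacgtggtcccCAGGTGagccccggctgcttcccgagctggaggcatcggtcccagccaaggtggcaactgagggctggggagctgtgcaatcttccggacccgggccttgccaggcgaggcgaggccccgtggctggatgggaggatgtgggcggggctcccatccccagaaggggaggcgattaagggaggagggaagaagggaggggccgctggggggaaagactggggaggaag

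In Twist1, TATAAA began at -126 and CAGACA at -9 from the start. In Tgfb2 they began at -31 and -204. Of all 32851 promoters, 13.6% held TATAAA, 6913 promoters held CAGACA and 3.04% held both; the combination was looked at after it was seen in these 2 genes. CACCTG, read on the opposite strand at -177 in Bmp4, was also in the promoters of Snai1 (-126) and Msx1 (-210) and in 20.2% of all promoters. CCAAT was in the promoters of 5 of the 6 genes and in 37.4% of all. A Twist-type E-box (CATATG) was in none of the 6 and in 3.92% of all promoters, and a GC-rich BMP element (GGCGCC) in none of the 6 and in 11.9%. A match is a description of these letters only.

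Divided by exon length, Sox9 had the highest mean of the 10 genes in each of the 6 groups, 133.1 to 243.3 signal per kilobase. Msx2 had the lowest, 0.12 to 5.09. Snai2 came next to Sox9 in 4 of the groups, and Tgfb2 in both atrial groups. Twist1 had rank 3 in wild-type E13.5 hearts, at 99.8 ± 28.5 per kilobase (SD, n = 4), and rank 6 in wild-type atria, at 21.3 ± 19.7 (SD, n = 3). The ranges of Twist1 and Tgfb2, neighbours in that order at E13.5, overlapped.

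**Figure D1:**
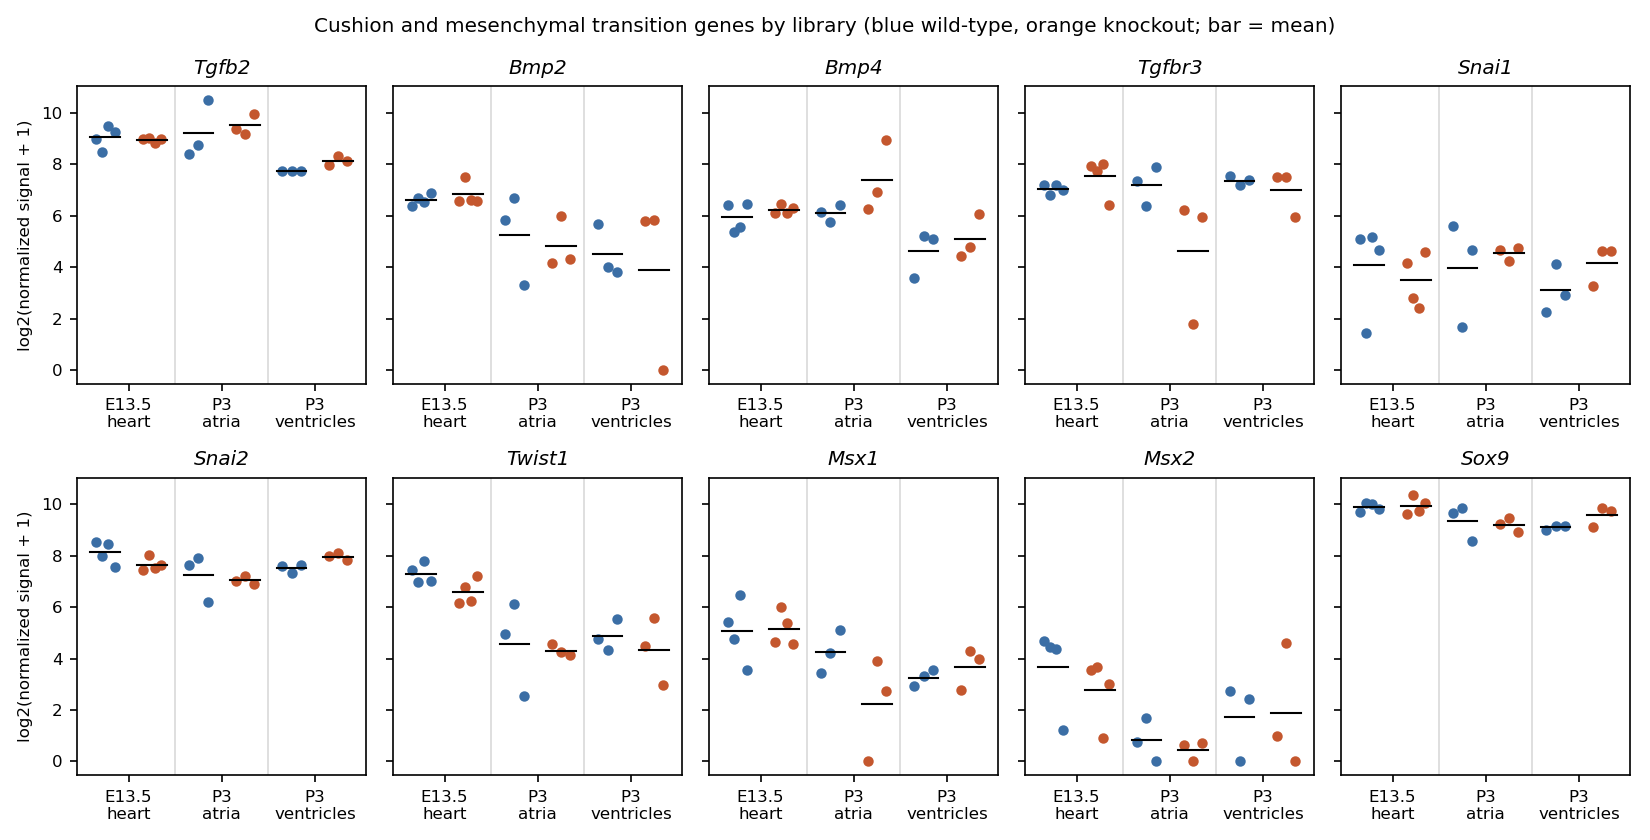
Log2(normalized signal + 1) of the 10 genes in each of the 20 libraries, by stage, tissue and genotype; points are libraries and bars are group means on that scale. All 8 E13.5 points of Twist1 lie above its 12 P3 points, and all 6 ventricular points of Tgfb2 lie below its other 14.

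The steadiest differences among the 10 genes were between stages. Twist1, a basic helix-loop-helix factor of cushion and limb mesenchyme, fell from E13.5 to P3 in both chambers. Wild-type E13.5 hearts had a signal of 176, 125, 223 and 127, and knockout hearts 70.8, 110, 75.1 and 150. Wild-type atria at P3 had 30.5, 68.6 and 4.89, and knockout atria 22.5, 17.9 and 16.6. Wild-type ventricles had 26.3, 19.3 and 45.7, and knockout ventricles 21.3, 47.4 and 6.97. The lowest E13.5 heart, at 70.8, was above the highest P3 library, at 68.6, so the stages did not overlap in any genotype or chamber.

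Over both genotypes Twist1 differed by -2.53 ± 0.50 (log2, SE; limma adjusted p = 0.00187; 6 libraries against 8) in P3 atria and by -2.34 ± 0.50 (adjusted p = 0.00333) in P3 ventricles. It was called under all 32 other settings in each, with adjusted p from 0.000481 to 0.0213 in atria and from 0.000196 to 0.0271 in ventricles. The 8 hearts came from 3 litters and the 6 pups from 3 litters, and this fit took libraries as independent, so its p-values may be too small. With 1 mean per litter and tissue (3 litters against 3, added after the data were seen), Twist1 was the 1 gene of the 10 called in either chamber (adjusted p = 0.0213 in atria and 0.0271 in ventricles). These comparisons over both genotypes were added after the data were seen. Within wild-type alone the differences were -2.76 ± 0.70 (adjusted p = 0.0229) and -2.42 ± 0.70 (adjusted p = 0.0486). In knockout they were -2.30 ± 0.70 (adjusted p = 0.0852) and -2.26 ± 0.70 (adjusted p = 0.0934), past the threshold in neither. The change with age differed between genotypes by 0.46 ± 0.99 in atria and by 0.17 ± 0.99 in ventricles, limma adjusted p 0.999 and 1. The wild-type ventricular call held in 5 of 20 fits with 1 library left out (adjusted p up to 0.190, without wild-type ventricle replicate 2). The wild-type atrial call held in 17, failing without wild-type E13.5 replicate 1 or 3 or wild-type atria replicate 3 (adjusted p 0.151, log2 difference -1.76 without wild-type atria replicate 3). All 3 losses were libraries of the groups compared. Leaving out a library of another group keeps the log2 difference and changes only the spread estimate and the adjustment. Such fits, counted among the 20 here and below, do not test the difference itself.

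In bulk tissue, fewer cells of a type and less RNA per cell cannot be told apart. Whole hearts were compared with dissected chambers, so age and dissection cannot be told apart either. All P3 libraries were prepared in 2018 and 6 of the 8 E13.5 libraries in 2016. The E13.5 pair of 2018, which were littermates, had Twist1 at 127 and 150, both above the highest P3 library. The part of preparation year in the stage differences was not tested. Cartilage and airway-wall markers, 5 of 6 in the table, summed to 233 to 575 in E13.5 hearts and 8.71 to 260 in P3 libraries, with 2 of the 5 at 0 throughout knockout E13.5 hearts. Lung epithelial markers, 4 of 5 in the table, reached 369 at E13.5 and 70.4 at P3, with all 4 at 0 in wild-type ventricles and 2 at 0 throughout knockout E13.5 hearts. Fibroblast markers, all 8 present, summed to 18200 to 33432 in E13.5 hearts and to 38852 to 71861 at P3, so they were higher where Twist1 was lower. Epicardial markers, all 6 present, summed to 1158 to 1520 at E13.5, 599 to 986 in ventricles and 1275 to 3059 in atria. Cardiomyocyte markers, all 6 present, summed to 72425 to 104894 at E13.5, 181695 to 227922 in ventricles and 86318 to 142830 in atria. Erythroid markers, all 5 present, summed to 24545 to 125893 at E13.5, 4491 to 12937 in ventricles and 6803 to 53730 in atria. Endothelial and endocardial markers, all 6 present, summed to 2029 to 2470 at E13.5, 2147 to 2692 in ventricles and 3519 to 4667 in atria. The part of these cell types in the stage differences was not tested.

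Tgfb2, the TGF-beta ligand of cushion myocardium and mesenchyme, fell in ventricles. The signal of wild-type E13.5 hearts was 504, 352, 726 and 603, and that of knockout hearts 505, 520, 456 and 505. Wild-type ventricles had 215, 214 and 210, and knockout ventricles 252, 320 and 278. The highest ventricular library, at 320, was below the lowest E13.5 heart, at 352. The difference over both genotypes was -1.06 ± 0.26 (limma adjusted p = 0.0112), called under 31 of 32 other settings (adjusted p 0.000448 to 0.0375) and lost with litter means (-1.07, adjusted p = 0.101). Within wild-type it was -1.31 ± 0.37 (adjusted p = 0.0454), called in 6 of 20 fits with 1 library left out (adjusted p up to 0.132, without wild-type ventricle replicate 3), and within knockout -0.81 ± 0.37 (adjusted p = 0.318). Atrial Tgfb2 was 338, 430 and 1469 in wild-type pups, against 658, 584 and 1007 in knockout pups. Both libraries of the third pair were the highest of their group. The atrial difference from E13.5 was 0.37 ± 0.26 (adjusted p = 0.412), and -0.07 without the third litter.

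Bmp2, the myocardial ligand that starts cushion transition, also fell in ventricles, with less stability. Its signal was 82.1 to 118 in wild-type and 94.9 to 183 in knockout E13.5 hearts. Wild-type ventricles had 50.8, 14.9 and 13.1, and knockout ventricles 54.1, 56.5 and 0, so the groups did not overlap; the library listed at 0 has a floor of 2.61. The difference was -2.54 ± 0.74 (limma adjusted p = 0.0302) over both genotypes. Without knockout ventricle replicate 3, the library at 0, it was -1.57, and without the third litter -1.40. The call was lost in 5 of 20 fits with 1 library left out: without knockout E13.5 replicate 2, wild-type E13.5 replicate 4, wild-type ventricle replicate 2 or 3, or knockout ventricle replicate 3 (adjusted p up to 0.0763). It was also lost with no variance trend, without wild-type pup 2 (adjusted p = 0.0695), without the E13.5 pair of 2018 (adjusted p = 0.0706) and with litter means (adjusted p = 0.157). Within wild-type the difference was -2.13 ± 1.05 (adjusted p = 0.307) and within knockout -2.95 ± 1.05 (adjusted p = 0.155). In atria Bmp2 was 8.81 to 102 in wild-type and 16.8 to 61.8 in knockout pups, overlapping E13.5, with a difference of -1.68 ± 0.74 (adjusted p = 0.154).

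Over both genotypes, 3 of the 10 genes were called lower in P3 atria (Twist1, Sox9 and Msx2) and 3 lower in P3 ventricles (Twist1, Tgfb2 and Bmp2); none was called higher. Twist1 in atria, and Twist1, Tgfb2 and Bmp2 in ventricles, did not overlap between stages, as for 1.55% and 2.5% of all genes in that direction. Of all 18125 genes tested, 11.6% were called in atria, 4.98% lower, and 11% in ventricles, 4.41% lower. The median log2 difference was -1.05 over the 10 genes against 0.07 over all genes in atria, and -1.15 against -0.02 in ventricles. Scaling all libraries to 1 total moved the median of all genes in ventricles by -0.49 and the share of calls that were higher from 60.0% to 16.2%. Then 7 of the 10 genes were called lower there, with Twist1 at -2.85 and Tgfb2 at -1.59. Such scaling moves each gene by about the same amount, so these values restate the earlier differences and are no separate support for them.

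Sox9, whose product drives mesenchymal proliferation in the cushions, was 837 to 1064 in wild-type and 792 to 1303 in knockout E13.5 hearts and 379 to 936 in the 6 atrial libraries, with overlap. Its atrial difference of -0.64 ± 0.21 (limma adjusted p = 0.0494) lay at the threshold and was called in 5 of 20 fits with 1 library left out. Without the third litter it was -0.37 (adjusted p = 0.223), and with litter means -0.60 (adjusted p = 0.283). Msx2, a BMP-responsive homeobox gene, was at the floor in all 6 atrial libraries. Wild-type E13.5 hearts had 25.1, 20.8, 19.5 and 1.37, and knockout hearts 10.8, 11.8, 0.863 and 7.12, with 1 library of each genotype at the floor. It was called lower in atria (adjusted p = 0.0402), a call lost in 11 of 20 fits with 1 library left out (adjusted p up to 0.0977, without wild-type atria replicate 3), without the third litter (0.120) and with litter means (0.0843); the size of a change to so few counts rests on the pseudocount.

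Msx1, the related homeobox gene, was 10.9 to 88.3 at E13.5 and 0 to 33.3 at P3, with differences of -1.87 ± 0.62 (limma adjusted p = 0.0531) in atria and -1.63 ± 0.62 (adjusted p = 0.100) in ventricles. Bmp4, a BMP ligand of mesenchyme and outflow tissue, was 40.4 to 87.8 at E13.5 and 11 to 65.9 in ventricles, a difference of -1.23 ± 0.42 (adjusted p = 0.0660). Snai2, which encodes Slug, differed by -0.75 ± 0.25 (adjusted p = 0.0605) in atria and -0.15 ± 0.25 in ventricles. Snai1, the other Snail-family gene, ranged from 1.73 to 47.5 over all libraries; its differences of 0.48 ± 0.70 and -0.16 ± 0.70 were smaller than their standard errors.

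**Figure D2:**
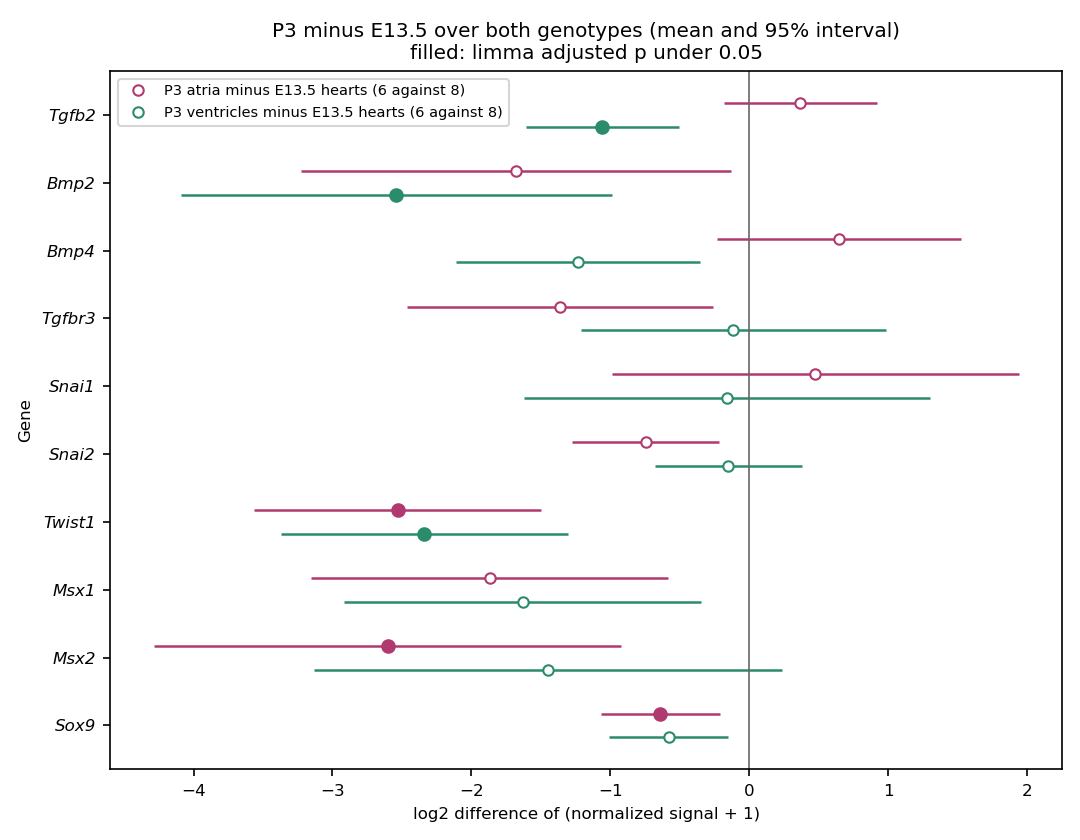
Log2 difference of P3 atria (6 libraries) and P3 ventricles (6 libraries) from E13.5 hearts (8 libraries) over both genotypes, with 95% intervals; filled points have a limma adjusted p under 0.05. Twist1 is filled in both chambers (-2.53 and -2.34), and Tgfb2 lies at 0.37 in atria and -1.06 in ventricles.

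Within single genotypes fewer genes passed. In wild-type atria 1 of the 10 (Twist1) was called lower than at E13.5, against 5.50% of all genes called and 2.39% lower; it was also the 1 gene of the 10 whose groups did not overlap, as for 6.74% of all genes in that direction. In wild-type ventricles 2 (Twist1 and Tgfb2) were lower, against 5.09% and 1.74%, and 6 did not overlap, all lower, where 8.41% of all genes did so. The 6 include Msx1, whose groups were apart only by 10.87 against 10.93 (5.00 and 7.99 estimated counts). In knockout atria 1 (Tgfbr3) was lower, against 2.80% and 0.855%, and 7 did not overlap and were lower, where 6.27% did so; Tgfb2 did not overlap and was higher, as for 8.25% of all genes. The 7 include Msx2, whose groups were apart only by 0.638 against 0.863, each 1 estimated count and at the floor, so that gap reflects the scaling of the libraries. In knockout ventricles none was called, against 2.74% (0.954% lower); 5 of the 10 had groups that did not overlap, all lower, where 7.84% of all genes did so. These 4 comparisons share libraries with each other and with those over both genotypes.

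No difference between the genotypes passed the test for any of the 10 genes. None was called at E13.5, in P3 atria or in P3 ventricles, where limma called 0%, 0.0276% and 0% of all genes. At an unadjusted p under 0.05 the counts were 0, 2 and 0 of the 10, against 747, 964 and 707 of all 18125 genes. The median log2 difference of the 10 genes was -0.02, -0.22 and 0.41 in the 3 tissues, against 0.01, 0 and -0.01 over all genes. Replicate numbers pair the libraries by litter, and with the replicate number as a block none was called either.

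**Figure D3:**
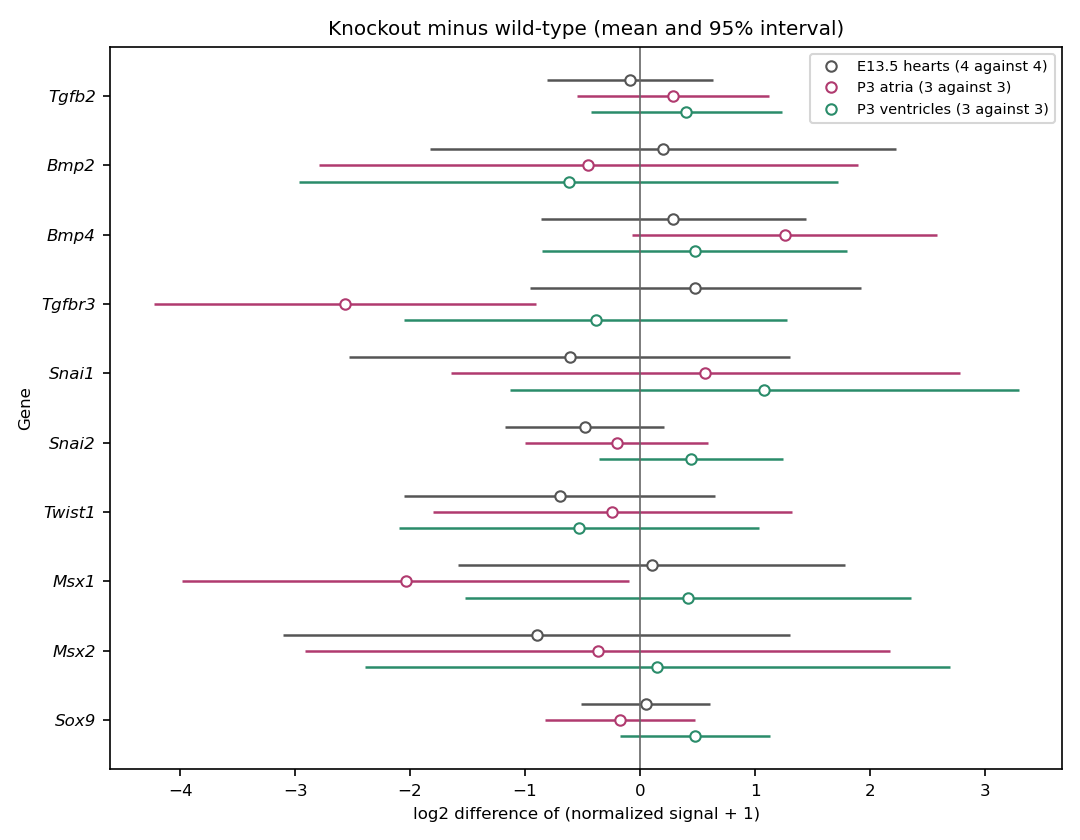
Log2 difference of knockout minus wild-type for the 10 genes in E13.5 hearts, P3 atria and P3 ventricles, with 95% intervals. Of the 30 intervals, those of Tgfbr3 (-4.23 to -0.91) and Msx1 (-3.98 to -0.10) in atria leave out 0; no difference passed an adjusted p of 0.05.

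Tgfbr3, or betaglycan, the co-receptor that presents TGF-beta2 to its receptors, had the largest of the 30 differences between genotypes, in atria. Its atrial signal was 162, 82.3 and 239 in wild-type pups, against 73.4, 2.42 and 60.7 in knockout pups. Each knockout library was below its wild-type littermate, and the groups did not overlap, as for 7.91% of all genes (3.99% lower). The difference was -2.57 ± 0.80 (limma adjusted p = 0.606; adjusted p = 0.117 with the replicate block). Without knockout replicate 2, which held 2.43 estimated counts, it was -1.13. Tgfbr3 was 110 to 147 in wild-type and 85.2 to 258 in knockout E13.5 hearts (0.48 ± 0.69) and 145 to 186 and 60.5 to 181 in ventricles (-0.39 ± 0.80). The knockout effect in atria differed from that at E13.5 by -3.05 ± 1.06 (unadjusted p = 0.00897, adjusted p = 0.939), where 0.00552% of all genes and none of the 10 were called. Within knockout, atria were lower than E13.5 hearts by -2.89 ± 0.75 (adjusted p = 0.0385). That call held in 14 of 20 fits with 1 library left out; without knockout atria replicate 2 the difference was -1.45 (adjusted p = 0.169). It was also lost without knockout E13.5 replicate 1, 2 or 3 or wild-type ventricle replicate 1 or 3. The wild-type ventricle libraries are outside the groups compared, so leaving them out did not change the difference. All Tgfbr3 values are uncertain, since its reads could be assigned to genes that overlap it on its own strand, described below. The part of such reads in the Tgfbr3 differences was not tested.

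Msx1 was 9.92, 17.7 and 33.3 in wild-type atria, against 0, 13.9 and 5.74 in knockout atria. It was lower in the knockout of each pair, with overlapping groups. The difference was -2.04 ± 0.93 (limma adjusted p = 0.909), and -0.93 without knockout replicate 1, the library at 0. These libraries held 0 to 34.0 estimated counts of Msx1.

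Bmp4 was 69.7, 53.7 and 84.9 in wild-type atria, against 75.6, 119 and 493 in knockout atria. It was higher in the knockout of each pair, and most so in replicate 3. The difference was 1.26 ± 0.64 (limma adjusted p = 0.963), and 0.47 without knockout replicate 3. The summed signal of 4 smooth muscle markers moved the same way, from 912, 2160 and 4575 in wild-type to 4602, 4726 and 10688 in knockout atria, with none of the 4 at 0; so did that of 5 erythroid markers, 6803, 7027 and 7908 in wild-type against 13088, 18266 and 53730 in knockout atria, highest in the library with the highest Bmp4. The part of either in the Bmp4 values was not tested. The summed signal of 8 fibroblast markers was 60502 to 71861 in wild-type and 47502 to 55712 in knockout atria.

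In ventricles Snai2 and Tgfb2 were higher in each knockout library than in any wild-type one, as for 4.97% of all genes; 10.5% did not overlap in either direction. Snai2 was 193, 161 and 198 in wild-type ventricles, against 251, 275 and 226 in knockout ones, a difference of 0.45 ± 0.38. That of Tgfb2, whose values are given above, was 0.40 ± 0.40. Ventricular Sox9 was 506, 567 and 579 in wild-type pups, against 563, 932 and 859 in knockout pups (0.48 ± 0.31), higher in the knockout of each pair. The limma adjusted p was 1 for each of these. The smooth muscle marker sum also did not overlap, at 1910 to 2144 in wild-type and 2338 to 4495 in knockout ventricles; its part in these values was not tested. Knockout ventricle replicate 2, the deepest library, held the highest ventricular value of 8 of the 10 genes.

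At E13.5 no gene separated the genotypes, where 2.54% of all genes did. Snai2 was 367, 256, 348 and 190 in wild-type hearts, against 173, 258, 184 and 198 in knockout hearts (-0.48 ± 0.33). Twist1 differed by -0.70 ± 0.65, with a 95% interval of -2.05 to 0.65. Wild-type replicate 3 held the highest value of Snai1, Twist1, Msx1 and Tgfb2. The 95% intervals of Sox9 (-0.52 to 0.61) and Snai2 (-1.17 to 0.21) were those with the smallest standard errors. The differences not given above ranged, over the 3 tissues, from -0.90 ± 1.06 (Msx2 at E13.5) to 1.08 ± 1.06 (Snai1 in ventricles, higher in the knockout of each pair).

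Between chambers of the same pup, the 2 ligands Tgfb2 and Bmp4 were lower in ventricles than in atria in 6 of 6 pups. For Tgfb2 the difference was -1.43 ± 0.32 (limma on within-pup differences, adjusted p = 0.0755), and -0.98 without the third litter. For Bmp4 it was -1.88 ± 0.42 (adjusted p = 0.0762). Atrial Tgfb2 (338 to 1469) and ventricular Tgfb2 (210 to 320) did not overlap, as for 1.52% of all genes in that direction; Bmp4 (53.7 to 493 and 11 to 65.9) did not overlap within either genotype, as for 8.20% (wild-type) and 8.79% (knockout) of all genes in that direction. None of the 10 genes was called over both genotypes, against 1.45% of all genes, nor in wild-type (0.0883%) or knockout (0.199%) alone. With the pup ignored, both genes were called. Endothelial and endocardial markers summed to 2147 to 2692 in ventricles and 3519 to 4667 in atria. Fibroblast markers summed to 38852 to 48178 and 47502 to 71861, and epicardial markers to 599 to 986 and 1275 to 3059. Cardiomyocyte markers went the other way, at 181695 to 227922 and 86318 to 142830. The part of these cell types in the chamber differences was not tested.

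Snai2 was higher in the ventricles of 3 of 3 knockout pups (0.92 ± 0.44, limma adjusted p = 0.583) and of 1 of 3 wild-type pups. Msx1 was lower in ventricles in 3 of 3 wild-type pups and higher in 3 of 3 knockout pups. The knockout effect on Msx1 differed between chambers by 2.46 (unadjusted p = 0.0788, adjusted p = 1); of all genes, limma called 0%, and 469 had an unadjusted p under 0.05. The knockout effect in ventricles against that at E13.5 also gave 0% and none of the 10, with 729 genes at an unadjusted p under 0.05.

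**Figure D4:**
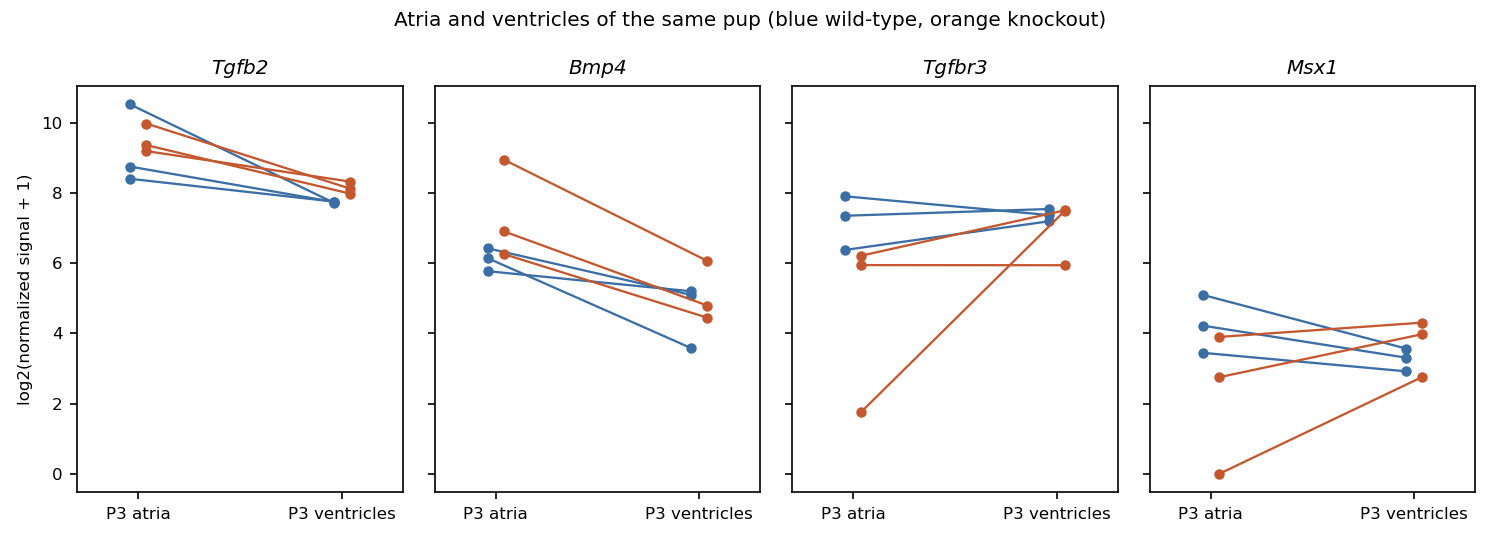
Log2(normalized signal + 1) of Tgfb2, Bmp4, Tgfbr3 and Msx1 in the atria and ventricles of the same P3 pup; each line is 1 of 6 pups. All lines fall for Tgfb2 and Bmp4, and those of Msx1 fall in wild-type and rise in knockout pups.

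Other genes of the pathway were read from 6 lists of 97 genes, 94 of which were tested. Over both genotypes 20 were higher and 14 lower in atria than at E13.5, and 11 higher and 19 lower in ventricles. Over all 18125 genes, 1204 were higher and 902 lower in atria, and 1197 higher and 799 lower in ventricles. Among 11 ligands, Bmp10, a trabecular and atrial BMP, was 115 at E13.5, 2028 in atria (4.04 ± 0.39) and 7.09 in ventricles (-4.06 ± 0.39), and Bmp7 fell in both (-3.82 and -1.68). Among 12 receptors, Tgfbr2, the type II TGF-beta receptor, rose in both (1.01 and 0.95). Among 19 transducers and inhibitors, 6 fell in ventricles and none rose there; Bambi, a pseudoreceptor that blocks BMP and TGF-beta signals, fell in atria (-1.33) and ventricles (-1.20).

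Of 23 other cushion transcription factors, 4 fell and 2 rose in atria and 3 fell and 2 rose in ventricles. Sox11 fell in both (-2.28 and -1.93), as did Prrx2, a mesenchymal homeobox gene (-3.09 and -3.41). Of 20 mesenchyme and valve matrix genes, 9 rose and 4 fell in atria, and 4 rose and 6 fell in ventricles. Col2a1, a cartilage and cushion collagen that is also 1 of the cartilage markers above, fell from 139.6 to 0.82 in atria and 1.52 in ventricles, and Postn and Dcn, of fibroblast and valve matrix, rose in ventricles (1.60 and 1.85). Between genotypes 1 of the 94 was called: Lum, a keratan sulphate proteoglycan, was lower in knockout atria by -1.82 ± 0.28 (limma adjusted p = 0.0133). Lum is also among the 8 fibroblast markers, whose sum was 60502 to 71861 in wild-type and 47502 to 55712 in knockout atria. The part of fibroblasts in the Lum difference was not tested. Of 32 other settings the call was lost in 7: with no variance trend, with Xist as covariate, with the 2 groups alone (adjusted p = 1), without wild-type pup 2, and without wild-type atria replicate 1 or 2 or knockout atria replicate 1. Settings that left out an E13.5 or ventricular library kept the same difference. Leaving out 1 atrial library gave a limma adjusted p of 0.124, 0.0735 and 0.00147 (wild-type replicates 1, 2 and 3). For knockout replicates 1, 2 and 3 it was 0.0879, 0.0258 and 0.0483.

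The gene whose profile over the 20 libraries was nearest to that of Twist1 was Asb4, with a root mean square log2 difference of 0.68 after centring, among 10299 genes searched. For Tgfb2 it was Ptprf (0.33) and for Bmp4 it was Myl9 (0.53), a smooth muscle myosin light chain. Snai2 was nearest to Rnf7 (0.28) and Sox9 to Bzw1 (0.23). The root mean square of the gene's own centred profile was 1.45 for Twist1, 0.73 for Tgfb2, 1.05 for Bmp4, 0.52 for Snai2 and 0.45 for Sox9. The distances are therefore not comparable between genes, since flatter profiles give smaller ones. Bmp4 and Tgfb2 overlap genes on the opposite strand, and Tgfbr3 overlaps Gm42900, Gm43422 and Gm43423 on its own strand. Whether the counting used strand was not stated, so the values of Bmp4 and Tgfb2 are uncertain. The highest value in any library was 6.85 for Gm15217 and 34.0 for Gm15222, which overlap Bmp4. It was 7.65 for Gm26169, which overlaps Tgfb2, and Gm29491, also at Tgfb2, had no values. Reads of Tgfbr3 could be assigned to the genes on its own strand whatever the strand setting, so its values are uncertain too. Over the 20 libraries the median signal was 129.4 for Gm43423, 43.0 for Gm42900 and 0 for Gm43422. Tgfbr3 itself ranged from 2.42 to 258, so the signals of Gm43423 and Gm42900 lay within its range.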

How the data were processed

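Libraries were made by SMART-Seq2 from RNeasy Micro RNA, per the labels' protocols. Tools named in the submitters' processing notes are STAR 2.5.1, bcl2fastq 2.2 and DESeq2, with the build mm10; how counts per gene were made was not stated. The deposited values are a normalized signal on a linear scale for 26440 genes in 20 libraries. Each library's smallest step gave its estimated depth. Since many values were fractional, no count test was run. Floors of 3 counts cover counting error only, since reads carried no molecular identifiers.

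Values were analysed as log2(value + 1) with limma 3.58.1 in R 4.3.3, which understates changes of low genes. The 18125 genes that reached 10 in 3 or more libraries entered the fit. One fit gave each of 6 groups a mean (14 residual and 6.68 prior degrees of freedom). Chamber comparisons used within-pup differences (4 and 4.59). A Benjamini-Hochberg adjusted p under 0.05, two-sided, over all genes made a call. The fit was also run on simulated data with independent noise in each library. That simulation held no litter or pup correlation, so it does not bear on the p-values of these libraries. The 10 genes, the lists and the tests were chosen with earlier results of these data known. Comparisons over both genotypes, and of the knockout effect between P3 and E13.5, were added after the data were seen. Named genes are the 10, the 3 list members per list with the smallest p among those called (a selection of these is printed), and nearest profiles among genes with a mean of at least 50. Replicate numbers pair libraries by litter per the labels; E13.5 replicates 2 and 3 share 1 litter. Deviations of same-numbered libraries correlated at 0.212 to 0.638 in atria, 0.0200 to 0.0658 in ventricles and -0.0159 to 0.0159 at E13.5; differently numbered pairs spanned -0.411 to 0.225 in atria. No sample column was left unused (0).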

Additional observations from a re-analysis of the deposited data

Results flagged for a closer look

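Bmp2 in knockout E13.5 heart replicate 2 was 183.3, against 94.9 to 96.6 in the other 3 knockout hearts. Its gap to the nearest of them was 0.98 of the group's range, above Dixon's 95% critical value for 4 samples. It was the 1 such value in 22 groups tested, and chance gives about 1 in 20. The same library held the highest E13.5 value of Sox9.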

How the results depend on the processing

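Over both genotypes, Twist1 kept its calls against E13.5 in both chambers under all 32 other settings, and Tgfb2 in ventricles under 31. Between genotypes 0 of the 10 genes were called in each tissue under every setting. With the replicate number as a block the count was also 0 in each, and over all genes it went from 5 to 30 in atria and from 0 to 2 in ventricles. Of 4145 refits of single differences, 0 reversed a call, 101 lost one, 43 gained one and 138 changed sign with neither called. The causes of these changes were not tested.

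Of the 10 genes, 1 was called in wild-type atria against E13.5, and 0 with the 2 groups alone or without the third litter (0 to 1 with 1 library left out). In wild-type ventricles the count of 2 became 1 (pseudocount 0.5, upper-quartile scaling, Xist as covariate), 0 (no filter, no variance trend, without wild-type pup 2, without the E13.5 pair of 2018) or 4 (equal totals), and 0 to 3 with 1 library left out. In knockout atria 1 became 2 (pseudocount 10, without the third litter) or 0 (no filter, equal totals, upper-quartile scaling, no trend, 2 groups alone), and 0 to 2. In knockout ventricles 0 became 2 (equal totals) or 1 (2 groups alone), and 0 to 1. Over both genotypes 3 became 1 in atria without the third litter or with litter means (1 to 4 with 1 library left out), and in ventricles 7 (equal totals), 5 (Xist as covariate, without the third litter), 2 (no variance trend, without wild-type pup 2, without the E13.5 pair of 2018) or 1 (litter means), and 2 to 4 with 1 library left out. Litter means, added after the data were seen, left 694 of all genes called in atria and 855 in ventricles. Between chambers over both genotypes 0 became 1 (a filter of 50, equal totals) or 2 (no replicate block, pup ignored).

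Over all genes, 5 called between atrial genotypes became 14 without the third litter, 8 with a pseudocount of 10, 3 with equal totals, 2 with Xist as covariate or without wild-type pup 2, 1 with no trend and 0 with 2 groups alone, and 2 to 16 with 1 library left out. In ventricles 0 became at most 2, and at E13.5 at most 1. Against E13.5, 997 in wild-type atria became 205 and 508 in knockout atria 295 with 2 groups alone. In wild-type ventricles 922 became 1714 with equal totals and 528 without wild-type pup 2; equal totals moved 497 in knockout ventricles to 1064 and 1996 over both genotypes to 3628. The share of those calls that were higher then fell from 65.8% to 16.8% in wild-type and from 65.2% to 16.7% in knockout. Between chambers, ignoring the pup moved 16 (wild-type) to 272, 36 (knockout) to 219 and 262 (both) to 945; the other settings gave 1 to 54, 0 to 72 and 32 to 400. Depth limits Msx2 most, at the floor of 3 counts in libraries of every group; Snai1 was at it in 3 libraries, and Msx1, Tgfbr3 and Bmp2 in 1 each.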

Other observations

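The highest atrial value of each of Snai2, Twist1, Sox9 and Bmp2 was in wild-type pup 2. Its atria had the highest ventricular marker sum and the highest cartilage and airway-wall marker sum of the atrial libraries. Col2a1, a member of the latter list, had a mean of only 0.98 in wild-type atria, so it gave little of that sum. Without that pup the knockout minus wild-type difference in atria went from -0.24 to 0.54 for Twist1, from -0.20 to 0.12 for Snai2, from -0.45 to 0.26 for Bmp2 and from 0.57 to -0.58 for Snai1, which was at the floor in that library; none was called with or without it. The part of other tissue in these values was not tested.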
